A study of Mus musculus with 12 samples.

Results

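The NR4A nuclear receptors, Nr4a1, Nr4a2 and Nr4a3, are 3 of the 20792 genes listed in each of 12 RNA-seq libraries of mouse hematopoietic stem and progenitor cells (HSPCs). They were chosen by symbol, and all 3 were found in every library. The cells came from bone marrow of wild-type mice and were gated on flow cytometry (Lin−CD127−c-kit+Sca-1+), with 3 libraries in each of 4 groups. HSD ICH mice received a high-salt diet (HSD, 8% NaCl in chow and 1% NaCl in drinking water) over 8 weeks before intracerebral hemorrhage (ICH), and their cells were taken on day 7 after it. ND ICH mice received a normal diet (ND, chow with 0.5% NaCl) for 8 weeks, then ICH, and were sampled on the same day. HSD and ND mice had those diets for 8 weeks and no ICH. Mice were young when the diets began, and all were returned to ND chow after ICH, so that HSD ICH libraries are from mice off the salt diet. Each HSD or ND library pooled 3 animals, and the number pooled for HSD ICH and ND ICH libraries was not found in the sources used here.

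NR4A proteins are orphan nuclear receptors, transcription factors of the steroid receptor superfamily whose ligand pocket is filled by bulky side chains. Their activity is therefore set mainly by how much protein is made, and their genes are immediate early genes, transcribed within minutes of calcium, cAMP, growth factor or antigen receptor signals. They bind the NBRE motif as monomers and other elements as dimers, and Nr4a1 and Nr4a2 also pair with retinoid X receptors. In mice, Nr4a1 is required for nonclassical monocytes, and combined loss of Nr4a1 and Nr4a3 disturbs the quiescence of hematopoietic stem cells and leads to myeloid disease.

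The starts of the genes are shown because cAMP-responsive NR4A transcription is known to run through CRE core sites near them, and because the members are compared below with genes of the same signals. Sequences are from RefSeq on GRCm38.p6, 5′ to 3′ on the gene's strand, with the CRE core site (TGACG, or CGTCA on the other strand) in capitals. The Nr4a1 window is chr15:101266596-101266845 on the + strand, the Nr4a2 window is chr2:57124004-57124253 on the − strand, and both end at the base before the RefSeq start, which for Nr4a1 lies inside the annotated gene. For Nr4a3 only the first 50 bases of the window are printed, chr4:48045055-48045104 on the + strand, since other gene models begin further along it.
Nr4a1: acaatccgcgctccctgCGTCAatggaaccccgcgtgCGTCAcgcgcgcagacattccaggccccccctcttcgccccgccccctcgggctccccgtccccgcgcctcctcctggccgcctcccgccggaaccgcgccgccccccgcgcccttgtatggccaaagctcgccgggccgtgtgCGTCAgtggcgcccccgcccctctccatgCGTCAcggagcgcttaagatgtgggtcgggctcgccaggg
Nr4a2: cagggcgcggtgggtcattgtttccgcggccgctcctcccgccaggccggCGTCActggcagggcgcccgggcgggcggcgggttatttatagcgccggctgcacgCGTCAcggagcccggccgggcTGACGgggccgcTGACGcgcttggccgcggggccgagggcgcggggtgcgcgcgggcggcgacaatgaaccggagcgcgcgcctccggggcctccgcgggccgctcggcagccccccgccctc
Nr4a3: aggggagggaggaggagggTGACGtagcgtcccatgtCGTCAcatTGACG

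The 250 bases before the start held 4 CRE core sites in each member, of which 3 are in the printed bases of Nr4a3. Of 32817 mouse promoters of the same length, 17.8% held at least 1 on either strand and 0.689% held 3 or more. Those promoters were not matched for base content, and G or C made up 74.4% of the Nr4a1 window, 80% of Nr4a2 and 63.6% of Nr4a3. The full CRE (TGACGTCA, which contains the core on both strands) had no match in the 3 windows and was in 1.55% of promoters. The NBRE (AAAGGTCA, in 1.34% of promoters) and the CArG box bound by serum response factor (in 1.47%) had no match either. These are matches of letters only. In the annotation, Nr4a1 lies at chr15:101254269-101274795, Nr4a2 at chr2:57106830-57124003 and Nr4a3 at chr4:48045153-48086447 of GRCm38. Their exons cover 3509, 4059 and 5987 bases in that order. No listed gene overlaps them, and their transcripts shared 0 stretches of 31 bases, so that reads of the paralogs can be told apart.

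Values are CPM as deposited, reads scaled by the authors to a common library size. The libraries held 8678304 to 27491973 reads in listed genes, and the members had few of them, 28 to 233 reads per library for Nr4a1, 53 to 144 for Nr4a2 and 2 to 38 for Nr4a3. All 10 HSPC markers had reads in every library, and their summed level was 970.5 to 1483 CPM in HSD ICH, 1576 to 1595 CPM in ND ICH, 1653 to 1820.4 CPM in HSD and 1645 to 1786 CPM in ND. The lowest sum was that of HSD ICH replicate 3. Among these markers Ly6a, the gene of the Sca-1 protein in the gate, was low, at 2.42 to 6.72 CPM over the libraries. All 17 macrophage markers also had reads in every library, with sums of 104 to 231 CPM in HSD ICH, 145 to 230 CPM in ND ICH, 134 to 1023 CPM in HSD and 164 to 584 CPM in ND, the highest being HSD replicate 2 and ND replicate 1. In each library after ICH, 2 to 29 of the listed genes were at 0 reads, against 1393 to 1755 in each library without ICH. The labels give no batch, so that ICH and whatever else set these libraries apart cannot be told apart.

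Nr4a1, the member with the widest range in CPM, was high in ND HSPCs and lower in each other group. It stood at 4.88, 4.42 and 2.96 CPM in HSD libraries, against 12.3, 15.1 and 14.8 CPM in ND libraries. After ICH it stood at 3.76, 2.81 and 1.48 CPM in HSD ICH libraries, against 5.39, 6.03 and 5.29 CPM in ND ICH libraries. The groups of either diet comparison did not overlap, and ND libraries were above every other library. Means were 2.68 ± 1.14 CPM in HSD ICH, 5.57 ± 0.403 CPM in ND ICH, 4.09 ± 1.01 CPM in HSD and 14.1 ± 1.53 CPM in ND (SD, n = 3 each). The order was ND, ND ICH, HSD and HSD ICH, in which HSD and HSD ICH, the last neighbours, overlapped.

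**Figure D1:**
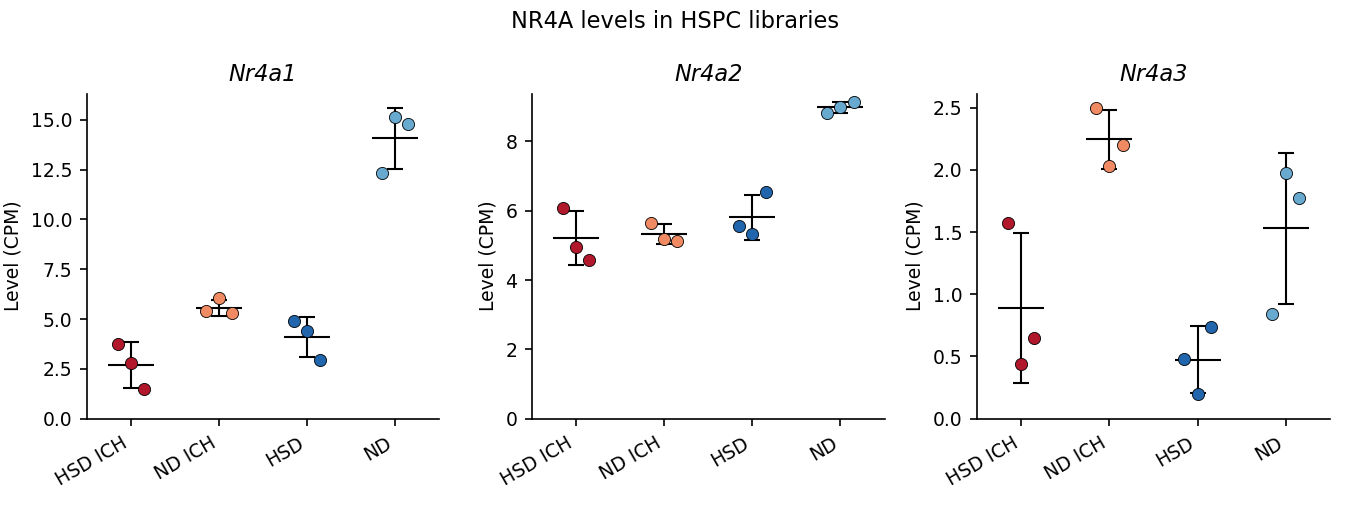
Levels of Nr4a1, Nr4a2 and Nr4a3 in CPM (y axis, from 0) in HSD ICH, ND ICH, HSD and ND HSPC libraries (x axis). Points are libraries, bars the mean ± SD of 3. Nr4a1 in ND libraries lies between 12.3 and 15.1 CPM, above all other libraries, and Nr4a3 stays at or below 2.50 CPM.

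Without ICH, Nr4a1 fell by 1.69 on the log2 scale in HSD HSPCs compared with ND HSPCs (log2 fold change of CPM + 0.5, SE 0.187, 95% interval −2.09 to −1.28). This was the rank 2 smallest p of 16787 genes tested by limma (adjusted p = 0.00526 by Benjamini-Hochberg over all of them). Nr4a1 was 1 of 3 members to pass, beside 0.0655% of all tested genes lower at that threshold. In a fit that shared the spread of all 12 libraries the fold change was the same and limma's adjusted p was 0.0717. Without HSD replicate 2 and ND replicate 1, the libraries high in macrophage genes, it was −1.84 (adjusted p = 0.000264, limma). P-values measure the spread between these libraries, and in bulk RNA fewer cells with the transcript and less transcript per cell cannot be told apart.

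After ICH the difference for Nr4a1 was −0.999 (SE 0.275, 95% interval −1.62 to −0.38), HSD ICH against ND ICH. It did not pass with an adjusted p of 0.256 by limma, in a comparison in which limma called 0 of 20079 genes (at an unadjusted p under 0.05, 2045 were lower and 1089 higher), edgeR's quasi-likelihood test 0 and DESeq2 117. Leaving out single libraries put it between −1.24 and −0.69. HSD ICH replicate 3, which had the lowest Nr4a1 level, also had the lowest sum of HSPC markers. Averaged over both ICH states, Nr4a1 was lower on HSD, with a log2 difference of −1.34 (SE 0.178, adjusted p = 0.00725, limma, rank 8 of 20393 genes), beside 0.309% of genes called lower.

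Within diets, Nr4a1 fell by 1.26 on the log2 scale in ND ICH HSPCs compared with ND HSPCs (SE 0.141, adjusted p = 0.000105, limma over 19387 genes). In HSD ICH against HSD it differed by −0.57 (SE 0.313, 95% interval −1.28 to 0.13, adjusted p = 0.325, limma), and by −0.26 without HSD ICH replicate 3. The difference between these ICH effects, which is also the diet effect after ICH minus the diet effect without it, was 0.69 (95% interval −0.08 to 1.45, adjusted p = 0.612, limma). It was thus not shown that ICH moved Nr4a1 differently on the 2 diets. ND libraries serve both HSD against ND and ND ICH against ND, and HSD libraries both diet and ICH comparisons, so these values are not independent of each other.

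Nr4a2, a receptor best known for dopaminergic neurons and also induced in activated leukocytes, was set apart in ND libraries only. It had 5.55, 5.33 and 6.55 CPM in HSD libraries, against 8.82, 9.01 and 9.14 CPM in ND libraries. It had 6.08, 4.95 and 4.59 CPM in HSD ICH libraries, against 5.65, 5.19 and 5.14 CPM in ND ICH libraries. HSD libraries lay below ND libraries without overlap, and after ICH the diets overlapped. Group means were 5.21 ± 0.777 CPM in HSD ICH, 5.33 ± 0.282 CPM in ND ICH, 5.81 ± 0.653 CPM in HSD and 8.99 ± 0.161 CPM in ND (SD, n = 3 each), and in the order ND, HSD, ND ICH and HSD ICH the last 3 overlapped as neighbours.

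Nr4a2 fell by 0.70 on the log2 scale in ND ICH HSPCs against ND HSPCs (SE 0.138, adjusted p = 0.00492, limma). Nr4a1 and Nr4a2 were thus 2 of 3 members called lower in that comparison, beside 3.23% of all tested genes. Without ND ICH replicate 3 the Nr4a2 value was −0.68, and the adjusted p of limma was then 0.0679. The other 3 comparisons did not pass. HSD against ND gave −0.59 (SE 0.151, 95% interval −0.92 to −0.27, adjusted p = 0.335, limma), and HSD ICH against HSD gave −0.15 (95% interval −0.58 to 0.28, adjusted p = 0.702, limma). HSD ICH against ND ICH gave −0.04 (95% interval −0.43 to 0.36, adjusted p = 0.927, limma), and its sign turned under another scaling, to 0.01. Averaged over ICH states, the diet difference for Nr4a2 was −0.32 (SE 0.108, adjusted p = 0.187, limma). The diet effect after ICH minus that without ICH was 0.56 for Nr4a2 and had an unadjusted p under 0.05, beside 2.22% of genes in that direction, and did not pass adjustment (adjusted p = 0.550, limma), as 0 of 20393 genes did by limma, edgeR or DESeq2.

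Nr4a3, which in mouse blood stem cells has overlapping roles with Nr4a1, was the lowest member in every library. It had 0.482, 0.201 and 0.740 CPM in HSD libraries, from 8, 2 and 7 reads, against 0.840, 1.97 and 1.78 CPM in ND libraries, from 12, 30 and 28 reads. It had 1.57, 0.444 and 0.650 CPM in HSD ICH libraries, from 23, 6 and 18 reads, against 2.50, 2.03 and 2.20 CPM in ND ICH libraries, from 38, 34 and 30 reads. HSD libraries lay below ND libraries in both ICH states without overlap, although without ICH the highest HSD library, at 0.740 CPM, was close to the lowest ND library, at 0.840 CPM. Its means were 0.888 ± 0.600 CPM in HSD ICH, 2.24 ± 0.237 CPM in ND ICH, 0.474 ± 0.269 CPM in HSD and 1.53 ± 0.605 CPM in ND (SD, n = 3 each). In the order ND ICH, ND, HSD ICH and HSD, only ND ICH and ND did not overlap as neighbours.

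No comparison of Nr4a3 passed the test. In HSD against ND it reached 10 reads in ND libraries only, so that it entered that fit through the group in which it was higher. All ND ICH libraries reached 10 reads, and HSD ICH replicate 2, at 6 reads, did not. Nr4a3 thus entered HSD ICH against ND ICH through ND ICH, and the diet average through ND and ND ICH, again where it was higher. The log2 difference was −1.05 for HSD against ND (SE 0.326, adjusted p = 0.520, limma) and −1.06 for HSD ICH against ND ICH (SE 0.298, adjusted p = 0.256, limma). Averaged over ICH states it was −1.06 (SE 0.224, 95% interval −1.54 to −0.57, adjusted p = 0.0559, limma). That average lies at the threshold: it passed without ND replicate 1 (−1.19, adjusted p = 0.0448, limma), without HSD ICH replicate 1 (−1.22, adjusted p = 0.0179, limma), with a pseudocount of 1 (adjusted p = 0.0490, limma) and with DESeq2 (−1.53, adjusted p = 0.00609). For ND ICH against ND the difference was 0.48 (95% interval −0.07 to 1.03, adjusted p = 0.241, limma), and 0.21 without ND replicate 1. In HSD ICH against HSD too few libraries reached 10 reads for the limma fit, and an exact two-sided permutation test of the difference of 0.47 gave p = 0.5, where 0.1 is the smallest p that 3 against 3 libraries allow. That difference was 0.14 without HSD ICH replicate 1, 0.25 without HSD replicate 2 and 0.70 without HSD ICH replicate 2.

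By the overlap of libraries alone, all 3 members were lower in HSD than in ND without ICH, beside 5.75% of tested genes, with Nr4a3 in the fit only through its ND reads. After ICH, 2 of 3 were lower in HSD ICH than in ND ICH, beside 13.3% of tested genes. These 2, Nr4a1 and Nr4a3, were lower in both states, beside 1.27% of the 16687 genes tested in both. In these counts Nr4a3 rests on its ND ICH reads and, without ICH, again on its ND reads. For ICH on ND, 2 members were lower without overlap, beside 14.3% of tested genes, and Nr4a3 was higher without overlap, beside 19.1%. For ICH on HSD, 0 members were lower without overlap, beside 14.5% of tested genes. Far fewer listed genes were at 0 reads after ICH than without it. The part of this in the shares for ICH, here and below, was not tested. Nr4a1 and Nr4a3 were also lower at an unadjusted p under 0.05 in both diet comparisons by limma, as were 0.929% of those 16687 genes. Nr4a3 was again in the first of these fits only through its ND reads, and it entered the second through its ND ICH reads. The members were chosen with earlier results of these data known, so the counts describe them and are not a test.

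**Figure D2:**
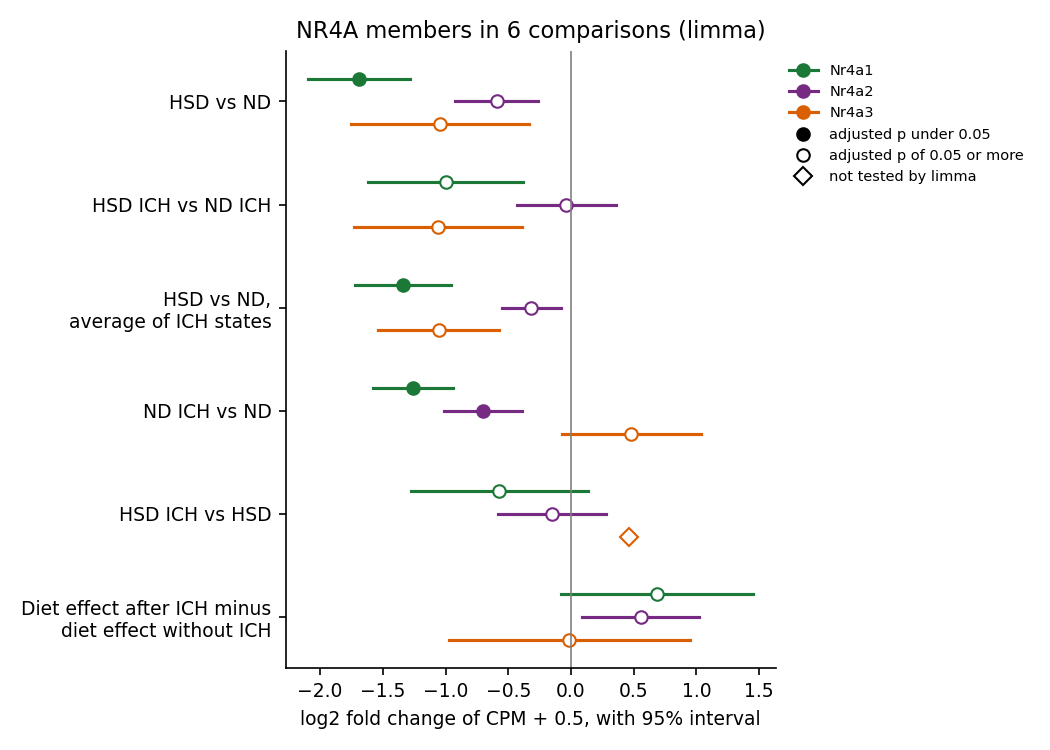
log2 fold change of CPM + 0.5 (x axis) for each member in 6 comparisons (y axis), with 95% intervals from limma over 3 libraries per group. Filled points have an adjusted p under 0.05, open points do not, and the diamond is the Nr4a3 difference of 0.47, which limma did not test. Nr4a1 is filled in HSD vs ND (−1.69), in the diet average (−1.34) and in ND ICH vs ND (−1.26), and Nr4a2 only in ND ICH vs ND (−0.70).

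Between the paralogs, levels can be compared per kb of exon. On that scale Nr4a1 averaged 0.764 ± 0.326 CPM per kb in HSD ICH, 1.59 ± 0.115 in ND ICH, 1.16 ± 0.286 in HSD and 4.01 ± 0.436 in ND libraries (SD, n = 3 each). Nr4a2 averaged 1.28 ± 0.191 CPM per kb in HSD ICH, 1.31 ± 0.0695 in ND ICH, 1.43 ± 0.161 in HSD and 2.21 ± 0.0398 in ND libraries. Nr4a1 was thus the higher of the pair in ND libraries, and Nr4a2 the higher in every HSD ICH library. Nr4a3 averaged 0.148 ± 0.1002 CPM per kb in HSD ICH, 0.375 ± 0.0395 in ND ICH, 0.0792 ± 0.0450 in HSD and 0.255 ± 0.101 in ND libraries.

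As a gauge of reads in genes that should be silent, 49 listed olfactory and vomeronasal receptor genes had a median of 0.117 to 0.343 CPM per kb in HSD ICH libraries and 0.386 to 0.409 in ND ICH libraries, against 0 in every HSD and ND library. Their 90th percentile was 0.595 to 1.79 CPM per kb in HSD ICH, 1.49 to 1.93 in ND ICH, 0.758 to 1.04 in HSD and 0.597 to 0.931 in ND libraries. Nr4a3 lay below that percentile in every library, and its 0.339 to 0.417 CPM per kb in ND ICH libraries lay near the median of those genes. In HSD ICH libraries it had 0.262, 0.0741 and 0.109 CPM per kb, below the median of those genes in each library (0.294, 0.343 and 0.117). That median was also lower in HSD ICH than in ND ICH libraries, without overlap. Nr4a1 also lay below the percentile in all HSD ICH libraries, ND ICH replicates 1 and 3 and HSD replicate 3, and Nr4a2 in HSD ICH replicates 1 and 2 and all ND ICH libraries. These 49 are only the receptor genes on the list, and all 49 had reads in every library after ICH. In each library without ICH, 21 or 22 of them did. Whether the choice of listed genes raised the gauge after ICH was not tested. How far reads like those of the gauge enter the values of the members after ICH, or their diet differences there, was not tested.

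**Figure D3:**
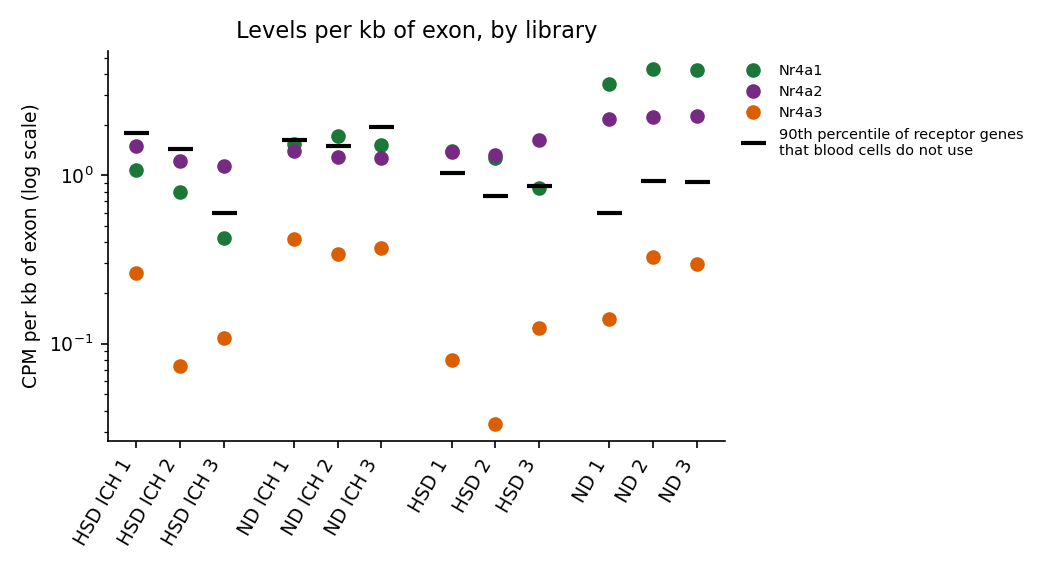
Levels in CPM per kb of exon on a log axis (y axis) for each library (x axis). Coloured points are the members, and black bars the 90th percentile of 49 olfactory and vomeronasal receptor genes. Nr4a3 is below the bar in every library, and Nr4a1 and Nr4a2 are above it in all 3 ND libraries.

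The family as a whole summed to 8.78 ± 2.39 CPM in HSD ICH, 13.1 ± 0.468 CPM in ND ICH, 10.4 ± 0.494 CPM in HSD and 24.6 ± 2.28 CPM in ND libraries (SD, n = 3 each). Nr4a1 made up 29.7 ± 6.69% of that sum in HSD ICH, 42.4 ± 2.88% in ND ICH, 39.4 ± 9.08% in HSD and 57.2 ± 0.992% in ND libraries. Nr4a2 took the largest share in both HSD groups, 60.6 ± 7.50% in HSD ICH and 56.1 ± 6.91% in HSD, against 40.5 ± 1.29% in ND ICH and 36.7 ± 2.99% in ND. Nr4a3 made up 17.1 ± 1.599% of the sum in ND ICH libraries, against 6.10 ± 2.00% in ND libraries, with 9.62 ± 4.18% in HSD ICH and 4.55 ± 2.60% in HSD.

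The log2 ratio of Nr4a1 to Nr4a2 within a library, on CPM + 0.5, was −0.17, −0.24 and −1.03 in HSD libraries, against 0.46, 0.72 and 0.67 in ND libraries. It was −0.63, −0.72 and −1.36 in HSD ICH libraries, against −0.06, 0.20 and 0.04 in ND ICH libraries. Every HSD library was thus below every ND library in the same ICH state. The diet difference was −1.03 (exact two-sided permutation test within ICH states, p = 0.005, the smallest its 400 arrangements allow, 0.02 after adjustment over 6 ratio tests). Nr4a1 therefore differed between diets by more than Nr4a2 did. After ICH compared with no ICH the ratio was lower, with a difference of −0.49 (exact permutation within diets, adjusted p = 0.03), but the libraries overlapped on HSD. That call was lost without HSD replicate 1 (−0.41), HSD replicate 2 (−0.43) or HSD ICH replicate 3 (−0.38), each with an adjusted p of 0.09 in the exact test.

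Ratios to Nr4a3 were lower after ICH. The Nr4a1 to Nr4a3 ratio averaged 1.21 ± 0.53 in HSD ICH, 1.15 ± 0.20 in ND ICH, 2.25 ± 0.69 in HSD and 2.89 ± 0.32 in ND libraries on the log2 scale (SD, n = 3 each). Its ICH difference was −1.39 (exact permutation, adjusted p = 0.02), and its diet difference of −0.29 did not pass (exact permutation, adjusted p = 0.365). The Nr4a2 to Nr4a3 ratio averaged 2.11 ± 0.43 in HSD ICH, 1.09 ± 0.07 in ND ICH, 2.73 ± 0.29 in HSD and 2.27 ± 0.46 in ND libraries. It was lower after ICH, with a difference of −0.90 (exact permutation, adjusted p = 0.02) and higher on HSD by 0.74 (exact permutation, adjusted p = 0.0225), a difference that was 1.14 with a pseudocount of 0.1 and 0.50 with a pseudocount of 1. Both ratios rest on the few reads of Nr4a3, and the median of the receptor genes of the gauge above was also higher after ICH. Whether the choice of listed genes raised that median was not tested. The median per kb of these receptor genes was lower in HSD ICH than in ND ICH, and its part in the diet differences was not tested.

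**Figure D4:**
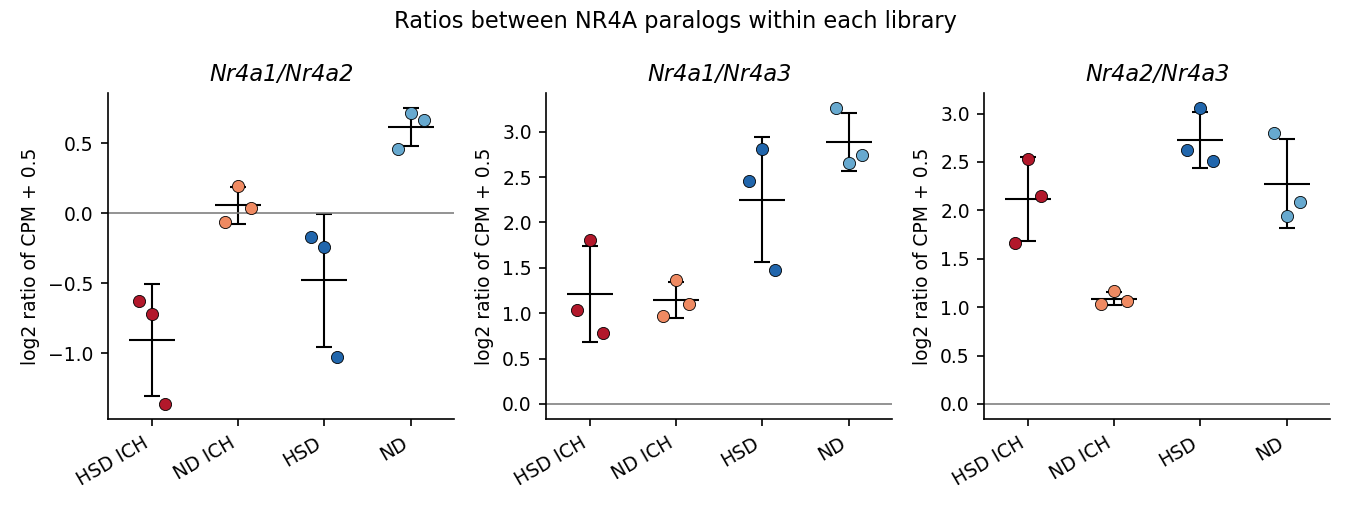
log2 ratio of CPM + 0.5 between paralogs (y axis) in each library of HSD ICH, ND ICH, HSD and ND (x axis), with the mean ± SD of 3 libraries. The Nr4a1 to Nr4a2 ratio is below 0 in all HSD ICH and HSD libraries, and the Nr4a1 to Nr4a3 ratio averages 1.21 in HSD ICH and 1.15 in ND ICH, below 2.25 in HSD and 2.89 in ND.

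Across the 12 libraries, log2(CPM + 0.5) of Nr4a1 had a Pearson r of 0.85 with Nr4a2 and 0.46 with Nr4a3, and Nr4a2 had 0.28 with Nr4a3. Once group means were removed, these were 0.31, 0.27 and 0.78. The libraries share group, scaling and depth, so these values only describe them.

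Immediate early genes, transcription factors and feedback regulators that signals induce within minutes, were largely lower in the comparisons in which Nr4a1 was. This list and those below were chosen with earlier results of these data known, so their counts describe them and are not a test. Of 39 listed genes, 37 could be tested in HSD against ND, and at an unadjusted p under 0.05 in limma 26 were lower and 0 higher, beside 3.28% and 3.65% of all genes. Their median log2 fold change was −0.39, against 0.02 over all genes tested. Egr1, a zinc finger factor of the growth factor response, fell to 40.0 ± 1.68 CPM in HSD libraries, against 74.3 ± 13.7 CPM in ND libraries (log2 −0.87, adjusted p = 0.0146, limma). Ppp1r15a, a phosphatase subunit that restores translation after stress, fell to 24.1 ± 1.98 CPM in HSD, against 42.8 ± 1.14 CPM in ND (log2 −0.82, adjusted p = 0.00526, limma), and Fos, an AP-1 subunit, fell to 86.0 ± 9.92 CPM in HSD, against 152.0 ± 27.96 CPM in ND (log2 −0.81, adjusted p = 0.0471, limma). Of the 37 genes, 0 had a lower fold change than Nr4a1, 1 (Atf3, −1.47) than Nr4a3 and 5 than Nr4a2.

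After ICH, 13 of 39 tested immediate early genes were lower and 0 higher in HSD ICH than in ND ICH at an unadjusted p under 0.05, beside 10.2% and 5.42% of all genes, with a median of −0.38 against −0.03 over all genes, and 0 passed adjustment by limma. The smallest p was that of Nfkbiz, a nuclear regulator of NF-kB, at 23.6 ± 7.204 CPM in HSD ICH, against 39.4 ± 4.09 CPM in ND ICH (log2 −0.77, adjusted p = 0.255, limma). For ICH on ND, 20 of 38 were lower and 0 higher at that threshold, beside 10.3% and 18.1% of all genes, and 14 passed adjustment as lower, beside 3.23%. Among them Sik1, a kinase that limits CREB coactivators, fell to 38.2 ± 3.57 CPM in ND ICH, against 60.5 ± 8.74 CPM in ND (log2 −0.65, adjusted p = 0.00323, limma), and Dusp2, a MAP kinase phosphatase, to 29.7 ± 2.12 CPM in ND ICH, against 41.9 ± 1.74 CPM in ND (log2 −0.49, adjusted p = 0.00279, limma). For ICH on HSD, 15 of 37 were lower and 3 higher at an unadjusted p under 0.05, beside 9.73% and 11.8% of all genes. Klf10 and Pim1 passed adjustment there as lower, beside 1.26% of all genes, at −0.56 and −0.72 (adjusted p = 0.0209 and 0.0422, limma), and Nr4a1 at −0.57 had 7 of 37 listed genes below it.

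**Figure D5:**
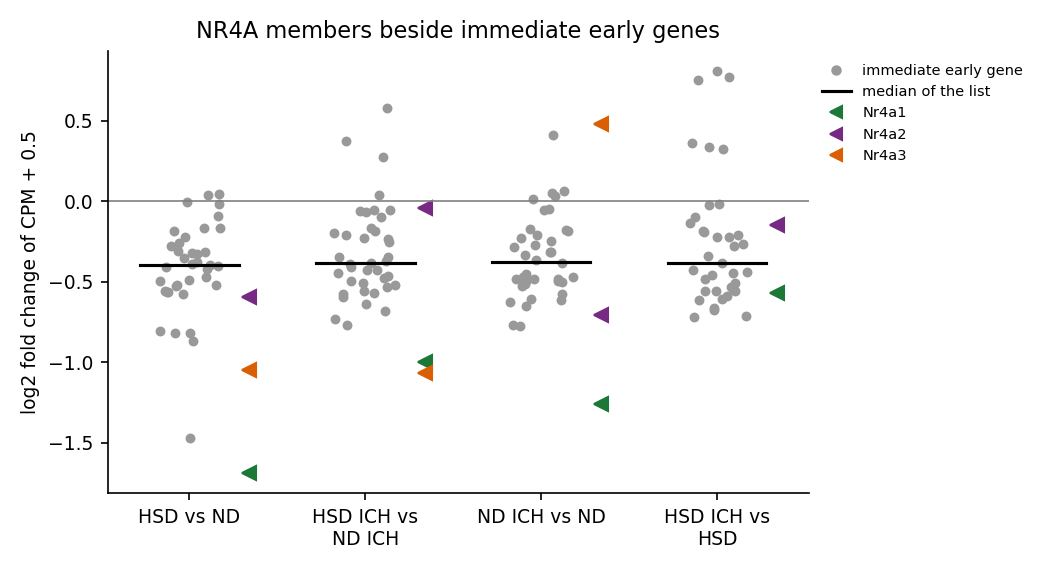
log2 fold change of CPM + 0.5 (y axis) of immediate early genes (grey points, 37 to 39 tested) and of the NR4A members (triangles) in 4 comparisons (x axis), with the median of the list as a black line. The list medians lie between −0.39 and −0.37, Nr4a1 lies below all listed genes in the first 3 comparisons, and Nr4a3 lies above all of them in ND ICH vs ND.

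Among genes that act with NR4A proteins or on their transcription, few had a small p between diets. Of 26 listed partners and regulators, which include retinoid X receptors, CREB and its coactivators, protein kinase A subunits, MEF2 factors and class IIa histone deacetylases, 25 were tested in HSD against ND. Of these 1 was lower and 0 higher at an unadjusted p under 0.05, near the 3.28% and 3.65% of all genes, with a median of −0.01 against 0.02 over all genes. That gene was Crem, a cAMP-responsive factor with repressor forms, at 3.95 ± 0.476 CPM in HSD, against 6.45 ± 0.800 CPM in ND (log2 −0.64, adjusted p = 0.421, limma). In HSD ICH against ND ICH, 1 of 26 was lower and 3 higher, beside 10.2% and 5.42% of all genes, the lower one being Mef2c (−0.45, adjusted p = 0.281, limma), and Srf and Atf1 (0.43 and 0.25) were among the higher.

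With ICH on ND, 10 of 25 tested partners and regulators were lower and 0 higher at an unadjusted p under 0.05, beside 10.3% and 18.1% of all genes, with a median of −0.18 against 0.01 over all genes. Hdac7, a class IIa deacetylase that MEF2 recruits to the Nr4a1 gene in mouse thymocytes, was the 1 of 25 that passed adjustment, beside 3.23% of all genes called lower, at 65.7 ± 9.85 CPM in ND ICH, against 87.5 ± 3.37 CPM in ND (log2 −0.42, adjusted p = 0.0223, limma). With ICH on HSD, 7 of 25 were lower and 1 higher, beside 9.73% and 11.8%, with a median of −0.16 against −0.01 over all genes, and Hdac7 had 64.1 ± 13.5 CPM in HSD ICH, against 87.9 ± 7.31 CPM in HSD (log2 −0.47, adjusted p = 0.119, limma). Rxrb, a dimer partner of Nr4a1 and Nr4a2, had 42.0 CPM in HSD ICH, 37.9 CPM in ND ICH, 53.0 CPM in HSD and 48.0 CPM in ND on average.

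Of 25 genes that NR4A proteins are known to regulate in some cell type, 22 were listed. In HSD against ND, 4 of 18 tested were lower and 1 higher at an unadjusted p under 0.05, beside 3.28% and 3.65% of all genes, with a median of −0.09 against 0.02 over all genes, and none passed adjustment by limma. Klf2, a quiescence factor of lymphocytes and endothelium, had 7.29 ± 1.98 CPM in HSD, against 11.5 ± 2.36 CPM in ND, and 5.18 ± 2.48 CPM in HSD ICH, against 9.54 ± 1.33 CPM in ND ICH. Bcl2l11, which encodes the death protein BIM, had 20.9 ± 1.595 CPM in HSD, against 26.2 ± 1.51 CPM in ND, and 16.9 ± 1.62 CPM in HSD ICH, against 21.7 ± 1.52 CPM in ND ICH. Both had lower means on HSD in either state, with diet averages of −0.77 for Klf2 (adjusted p = 0.103, limma) and −0.34 for Bcl2l11 (adjusted p = 0.0745, limma). Cdkn2c, an inhibitor of cell cycle kinases, was the higher one at 11.4 CPM in HSD, against 8.89 CPM in ND. The diet average was also lower for Irf4, a gene at a low level, at −0.61 (adjusted p = 0.0880, limma). It was higher for Cdkn2c and Fbp1, at 0.36 and 0.46 (adjusted p = 0.156 and 0.163, limma).

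After ICH, 6 of 21 tested target genes were lower and 2 higher in HSD ICH than in ND ICH at an unadjusted p under 0.05, beside 10.2% and 5.42% of all genes, with a median of −0.24 against −0.03 over all genes, and 0 passed adjustment by limma. With ICH on ND, 2 of 21 were lower and 3 higher at that threshold, beside 10.3% and 18.1% of all genes. Irf4 and Fbp1 rose, beside 13.5% of all genes called higher. Irf4, a lymphoid and macrophage transcription factor, had 1.53 ± 0.271 CPM in ND ICH, against 0.798 ± 0.0985 CPM in ND (log2 0.64, adjusted p = 0.0348, limma), and Fbp1, a gluconeogenic enzyme, 4.67 ± 1.00 CPM in ND ICH, against 2.69 ± 0.233 CPM in ND (log2 0.68, adjusted p = 0.0412, limma). Irf4 is at a low level, and the median of the receptor genes above was also higher after ICH. Whether the choice of listed genes raised that median, and the part of such reads in Irf4, were not tested. With ICH on HSD, 2 of 18 were lower and 4 higher, beside 9.73% and 11.8% of all genes, and 0 passed adjustment by limma. Among the higher were Cebpa and Irf8, factors of myeloid cells, with log2 values of 0.47 and 0.87 (adjusted p = 0.144 and 0.148, limma), and Irf8 had 108.2, 76.2 and 189.1 CPM in HSD ICH libraries, against 56.1, 88.3 and 51.2 CPM in HSD libraries, which overlap. The summed level of 10 neutrophil markers, all with reads in every library, was 69.97 to 78.9 CPM in HSD ICH and 38.1 to 43.5 CPM in HSD, and the part of such cells in these values was not tested.

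Among 11791 genes with a mean of at least 5 CPM, the 5 most like Nr4a1 over the 12 libraries were Nfkbiz (Pearson r = 0.96), Nabp1 (0.95), Ppp1r15a (0.93), Rhoh (0.93) and the long noncoding RNA Lncpint (0.92). With group means removed, r was 0.88 for Nfkbiz, 0.74 for Nabp1, 0.68 for Ppp1r15a, 0.83 for Rhoh and 0.92 for Lncpint. For Nr4a2 they were Cers5 (0.91), Herc1 (0.90), Plp2 (0.88), Edrf1 (0.88) and Gm24201 (0.88), and for Nr4a3 A130071D04Rik (0.92), Mbtd1 (0.89), 4932438A13Rik (0.86), Mbd5 (0.85) and Gm37298 (0.84). With group means removed, r was 0.61 to 0.84 in the Nr4a2 set and 0.66 to 0.81 in the Nr4a3 set. The 3 sets held different genes. Each set is the top of 11791 genes over 12 libraries in 4 groups, so these values only describe the libraries. Nfkbiz had the order of Nr4a1, with group means of 23.6 CPM in HSD ICH, 39.4 CPM in ND ICH, 34.5 CPM in HSD and 60.5 CPM in ND.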

How the data were processed

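The deposited values are CPM that the authors made by aligning reads to mm10 with Rsubread, counting with featureCounts and scaling by TMM in edgeR 3.24.3. Dividing by the smallest step of a library gave whole reads for 100.0% of values in each (tolerance 0.05 read). In HSD replicate 2 that step lies close to 0.1, and the largest deviation from a whole read there was 4.36e-05. Since CPM are not counts, limma 3.58.1 in R 4.3.3 was fitted with a trend on log2(CPM + 0.5), which understates changes of low genes. Testing required 10 or more reads in 3 or more of the compared libraries, in fits of 6 libraries for pairs of groups and of all 12 for the diet average and the difference of diet effects. The study's filter (CPM above 10 in at least 3 samples) keeps 10084 genes and drops Nr4a2 and Nr4a3, so it was an alternative only. Nr4a1 passes that filter through ND libraries alone, at 12.3 to 15.1 CPM, so its values there are no support. Other alternatives were edgeR 4.0.16 and DESeq2 1.42.0 on recovered reads, pseudocounts of 0.1 and 1, no filter, RLE scaling, TMM over genes above 10 CPM, a replicate block, 1 fit of all libraries and leaving out libraries. Scripts were tested on simulated data. Exon lengths and positions are from GENCODE M21.

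The members, the lists and the tests were chosen with earlier results of these data known. The text names the members, up to 4 genes of each list per comparison with the smallest unadjusted p under 0.05 (not all are named, and 1 is not reported here), and the 5 genes most like each member. Atf3 is named outside that rule, after its value was seen. Groups follow the labels of the samples. With 3 libraries per group and few Nr4a3 reads, precision is low.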

Additional observations from a re-analysis of the deposited data

Results flagged for a closer look

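The diet difference of Nr4a2 differed between ICH states by an unadjusted p under 0.05 of the interaction term. It was −0.59 for HSD against ND without ICH and −0.04 for HSD ICH against ND ICH, a difference of 0.56 on the log2 scale (SE 0.217, 95% interval 0.09 to 1.02, unadjusted p = 0.0228 by limma across all genes). It did not pass adjustment over 20393 genes (adjusted p = 0.550, limma), where 453 genes, 2.22% of those tested, had an unadjusted p under 0.05 in that direction. Over 21 alternatives it stayed between 0.45 and 0.64.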

How the results depend on the processing

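Leaving out 1 library at a time, Nr4a1 stayed between −1.82 and −1.50 in HSD against ND, between −1.46 and −1.19 in the diet average and between −1.35 and −1.21 in ND ICH against ND, and kept each call. In 1 fit of all 12 libraries HSD against ND stayed at −1.69 and lost its call. Nr4a2 in ND ICH against ND stayed between −0.74 and −0.68 and lost its call without ND ICH replicate 3. Nr4a2 in HSD ICH against ND ICH ran from −0.15 to 0.040 without single libraries and was 0.0069 with RLE scaling. The Nr4a3 diet average passed at −0.79 with a pseudocount of 1 and at −1.53 with DESeq2. It ran from −1.22 to −0.94 without single libraries, passing without ND replicate 1 or HSD ICH replicate 1. Nr4a3 entered these fits through its ND and ND ICH reads, where it was higher. The Nr4a3 difference of diet effects, −0.02, was 0.14 with a pseudocount of 0.1, 0.33 with edgeR, 0.34 with DESeq2, 0.041 without both ND replicate 1 and HSD replicate 2, and −0.35 to 0.26 without single libraries. The Nr4a1 to Nr4a2 ratio after ICH ran from −0.63 to −0.38 without single libraries, and lost its call without HSD replicate 1, HSD replicate 2 or HSD ICH replicate 3, as it did with ND replicate 1 and HSD replicate 2 both left out (−0.47). The Nr4a1 to Nr4a3 diet ratio was 0.026 with a pseudocount of 0.1. The causes were not tested. All other alternatives kept the direction and side of the threshold. Among them, the study's filter keeps Nr4a1 only through ND libraries, where it was high, so that setting is no support.

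Genes called numbered 13 in HSD against ND (63 with DESeq2, 1 in 1 fit of all libraries, 8 with no filter, 91 without both ND replicate 1 and HSD replicate 2, 8 to 22 without single libraries) and 0 in HSD ICH against ND ICH (117 with DESeq2, 297 in 1 fit of all libraries). They numbered 3245 in ND ICH against ND (122 with the study's filter, 264 to 2995 without single libraries), 1189 in HSD ICH against HSD (47 with the study's filter, 2384 with no filter, 3544 in 1 fit of all libraries, 671 without HSD replicate 2, 56 to 671 without single libraries) and 115 in the diet average (296 with DESeq2, 18 without both ND replicate 1 and HSD replicate 2, 16 to 283 without single libraries). TMM over genes above 10 CPM put the lower share of calls at 8.88% in ND ICH against ND, 19.3% by the deposited scaling, and at 65.7% in the diet average, 54.8% by the deposited scaling.

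Libraries with the same replicate number had correlations from −0.191 to 0.0943 over 18 pairs after group means were removed. Pairs with different numbers were not compared, so whether libraries of the same number share more than it was not tested. With a replicate block Nr4a1 kept its calls (adjusted p = 0.00778 in HSD against ND, 0.0181 in the diet average and 0.000104 in ND ICH against ND, limma), as did Nr4a2 in ND ICH against ND (0.0123), and genes called numbered 16, 0, 3304, 1081 and 82 in the comparisons above. Nr4a2 and Nr4a3 gave no value under the study's filter. Nr4a3 gave none in HSD against ND without any ND replicate or, for its adjusted p, with DESeq2, and in HSD ICH against HSD none with other scalings, edgeR, DESeq2 or the block. At 2 to 38 reads a library, counting error limits Nr4a3.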
